A study of Mus musculus with 8 samples.

Results

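The Nr4a nuclear receptors and a panel of Krüppel-like factors are transcription factors known to act in the fate of blood monocytes. The 10 genes were Nr4a1, Nr4a2, Nr4a3, Klf2, Klf3, Klf4, Klf6, Klf7, Klf10 and Klf13, chosen as known regulators of monocyte subsets, and every probe set annotated to exactly 1 of them was taken. This gave 33 probe sets of the 45037 on the array that are not controls. Of these, 26 passed the filter on dim signal and were tested, at least 1 for each gene, and the values of the other 7 are described without a test. Expression was measured in Ly6Clo (Gr1lo) and Ly6Chi (Gr1hi) monocytes of 12-week-old C57Bl/6 mice, and the labels name no treatment or altered gene. Each sort started from the combined leukocytes of 5 mice, 4 sorts are recorded, and 4 samples of each subset were obtained. Each sample was hybridised to 1 Affymetrix mouse 3' expression array after a lengthened in vitro transcription. The single comparison is Ly6Clo against Ly6Chi, and signed log2 differences are Ly6Clo minus Ly6Chi.

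Nr4a receptors are orphan nuclear receptors that need no ligand and are quickly switched on by many stimuli, through promoter elements that bind CREB, MEF2 and serum response factors. Nr4a1 (Nur77) is required in mice for the Ly6Clo subset, whose precursors die in the marrow without it. Krüppel-like factors bind GC boxes and CACCC elements through C-terminal zinc fingers. Klf2 and Klf4 are known for restraining inflammatory gene expression in monocytes and endothelium, and mouse Klf4 is known to be needed for normal numbers of circulating monocytes.

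The 3 Nr4a promoters are shown first because all of them repeat the same regulatory element and Nr4a1 had the largest difference among the members. The windows are RefSeq sequences (GRCm38.p6) from 250 bases before to 50 bases after each annotated start, on the strand of the gene, and capitals mark each TGACG on either strand (read as CGTCA on the printed strand when it lies on the other). TGACG is the core of the cyclic AMP response element, the site of CREB. The Nr4a1 window is chr15:101266596-101266895 (plus strand), the Nr4a2 window chr2:57123954-57124253 (minus strand) and the Nr4a3 window chr4:48045055-48045354 (plus strand).
Nr4a1: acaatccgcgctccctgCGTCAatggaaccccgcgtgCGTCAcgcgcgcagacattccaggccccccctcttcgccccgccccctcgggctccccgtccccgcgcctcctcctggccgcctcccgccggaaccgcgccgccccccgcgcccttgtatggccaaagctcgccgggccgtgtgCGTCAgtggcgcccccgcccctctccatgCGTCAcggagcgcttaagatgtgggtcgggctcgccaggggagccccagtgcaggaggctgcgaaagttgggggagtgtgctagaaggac
Nr4a2: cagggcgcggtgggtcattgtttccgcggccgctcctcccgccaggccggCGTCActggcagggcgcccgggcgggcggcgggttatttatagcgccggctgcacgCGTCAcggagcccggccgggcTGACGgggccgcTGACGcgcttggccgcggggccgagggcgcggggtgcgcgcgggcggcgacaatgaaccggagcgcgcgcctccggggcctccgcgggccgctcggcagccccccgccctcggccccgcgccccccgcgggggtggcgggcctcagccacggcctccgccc
Nr4a3: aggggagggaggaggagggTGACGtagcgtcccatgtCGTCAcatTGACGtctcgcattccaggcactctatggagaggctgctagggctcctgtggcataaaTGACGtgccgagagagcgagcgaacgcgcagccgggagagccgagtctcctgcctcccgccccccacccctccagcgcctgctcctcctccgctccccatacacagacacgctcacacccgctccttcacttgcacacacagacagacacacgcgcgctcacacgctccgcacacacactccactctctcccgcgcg
Each of these windows held 4 copies of TGACG. Of 32851 promoter windows in the RefSeq table, 20.8% held at least 1 copy and 0.231% held at least 4. The cut of 4 is the count in these 3 windows themselves, so that share is a description and no test. The full palindrome TGACGTCA, found in 1.79% of all windows, was in none of the 9 member windows, and Klf10 had no window in the table. Neither was AAAGGTCA, the element that Nr4a receptors bind as monomers (1.51% of all windows).

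The Klf2 window, chr8:72318812-72319111 (plus strand), is printed because it held a match to the MEF2 motif, in capitals, and MEF2 genes are described below.
Klf2: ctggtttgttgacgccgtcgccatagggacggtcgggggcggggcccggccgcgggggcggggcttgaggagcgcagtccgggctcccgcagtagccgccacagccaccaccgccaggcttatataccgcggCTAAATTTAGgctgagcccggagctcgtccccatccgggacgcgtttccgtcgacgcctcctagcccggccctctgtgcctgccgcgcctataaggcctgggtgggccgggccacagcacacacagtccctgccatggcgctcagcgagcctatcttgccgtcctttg
The match, CTAAATTTAG, reads the same on both strands. A MEF2 match was found in 3.19% of all windows and in 2 of the 9 member windows, those of Klf2 and Nr4a2. The GC box GGGCGG, on either strand, was in all 9 member windows and in 35.7% of all windows, with 4 copies in Klf4, 6 in Klf3 and 1 each in Nr4a3, Klf6 and Klf7. These matches are a description of the letters in these windows and say nothing of binding in monocytes.

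**Figure D1:**
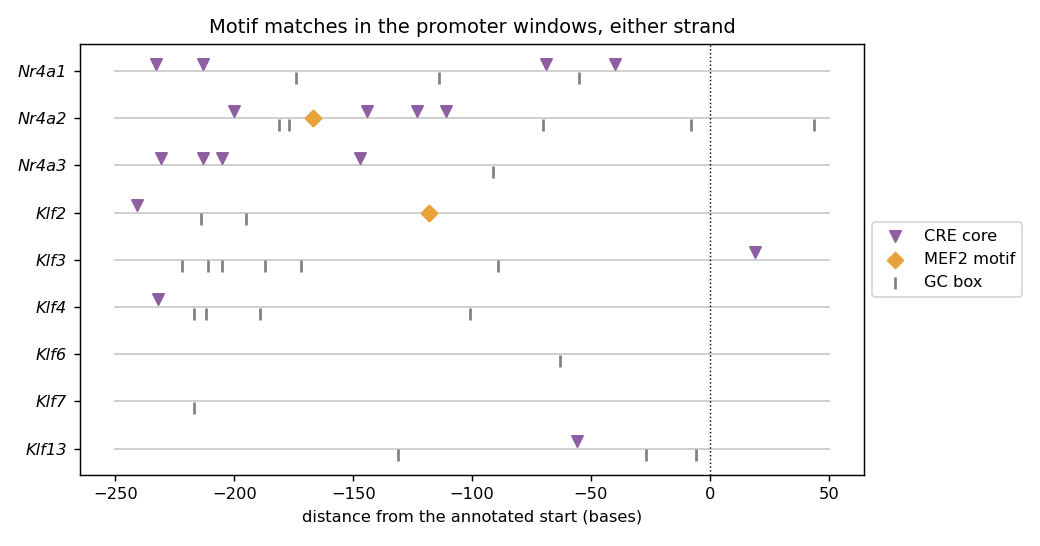
Motif matches in the promoter windows of the 9 members with a RefSeq window, drawn by distance in bases from the annotated start (dotted line), on either strand. Triangles are the cyclic AMP response element core, diamonds the MEF2 motif and ticks the GC box; the 3 Nr4a windows each hold 4 triangles, and the other windows at most 1.

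Across the 10 genes, each read from its brightest tested probe set, 4 were higher in Ly6Clo monocytes: Nr4a1, Klf4, Klf7 and Klf2. None was called higher in Ly6Chi. Called means a Benjamini-Hochberg adjusted p under 0.05 from limma, adjusted over all 22831 tested probe sets. At an unadjusted limma p under 0.05, 5 genes were higher in Ly6Clo and 0 in Ly6Chi. No share of all genes or probe sets is given at that unadjusted cut. Among all 11546 genes tested, 14.1% were called toward Ly6Clo and 18.5% toward Ly6Chi. The median difference was 0.16 on the log2 scale over the 10 genes and -0.01 over all genes. By probe set, 13 of the 26 tested were called higher in Ly6Clo, beside 15.2% of all tested probe sets (31.1% in either direction), and 0 higher in Ly6Chi (unadjusted, 14 and 0). The 13 include several probe sets of a same gene and are not independent. The subsets did not overlap for 11 of the 26, all higher in Ly6Clo, beside 15.4% of all tested probe sets (31.8% in either direction). In sorted bulk RNA, a lower share of expressing cells and less RNA per cell cannot be told apart. No array stood apart: within each subset the correlation between arrays over tested probe sets lay between 0.989 and 0.993. Array medians lay between 80.6 and 83.1, and arrays give no read depth, so their number limits the precision. Nothing in the labels ties an array to a batch.

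**Figure D2:**
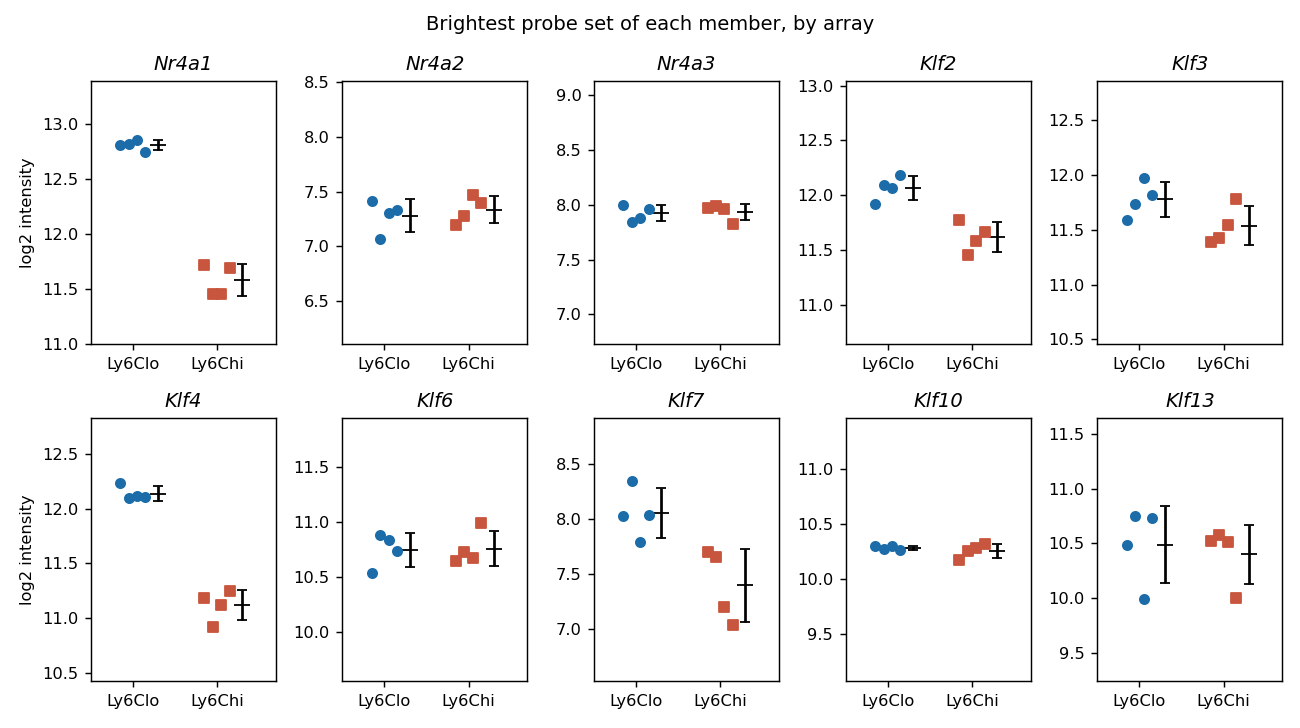
log2 intensity of the brightest probe set of each of the 10 genes in the 4 Ly6Clo (circles) and 4 Ly6Chi (squares) arrays, with mean and SD beside them; every panel spans the same range of log2 units. Nr4a1, Klf2, Klf4 and Klf7 have all Ly6Clo arrays above all Ly6Chi arrays, and the other panels overlap.

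Nr4a1 was the member with the largest difference. Its single probe set (1416505_at) read 7202, 7238, 7418 and 6852 in the Ly6Clo arrays, against 3366, 2804, 2806 and 3306 in the Ly6Chi arrays (intensity). All 4 Ly6Clo arrays lay above all 4 Ly6Chi arrays, and the Ly6Clo arrays lay closer together on the log2 scale only. On the log2 scale Nr4a1 was 12.81 ± 0.05 in Ly6Clo and 11.58 ± 0.14 in Ly6Chi (mean ± SD, n = 4 each). The difference was 1.23 (SE 0.08, 95% interval 1.06 to 1.40, limma adjusted p = 3.6e-07), or 2.35-fold. Its difference ranked 142 among the 11546 genes in order from the most Ly6Clo-high.

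The paralogs Nr4a2 (Nurr1, best known for dopamine neurons) and Nr4a3 (Nor1) were dim and did not pass the test. The brightest Nr4a2 probe set (1450749_a_at) read 170.9, 134.5, 158.3 and 161.0 in Ly6Clo, against 146.2, 155.5, 177.7 and 168.2 in Ly6Chi. The subsets overlapped, with a difference of -0.05 (95% interval -0.25 to 0.14, limma adjusted p = 0.71). Of its other 5 probe sets, 1433422_at was tested and not called (difference 0.09, limma adjusted p = 0.57), and 4 lay below the filter in all 8 arrays. The filter kept probe sets over the median of all values (intensity 81.9) in at least 4 of the 8 arrays. Among those 4, 1433423_at read 71.2 to 78.7 in Ly6Clo and 50.8 to 73.7 in Ly6Chi, and 1455034_at, the dimmest, 20.02 to 26.3 in Ly6Clo and 18.4 to 24.3 in Ly6Chi.

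Nr4a3 (1421080_at) read 256.0, 230.2, 235.2 and 249.3 in Ly6Clo, against 250.3, 254.0, 248.6 and 226.5 in Ly6Chi. The values interleaved, and the difference was -0.01 (95% interval -0.16 to 0.13, limma adjusted p = 0.91). Its other 2 probe sets lay below the filter in every array, at 42.3 to 53.8 in Ly6Clo and 40.4 to 55.4 in Ly6Chi. Arrays carry no detection calls here, so a dim probe set has no known level, and an interval that spans 0 does not show that the subsets express the gene alike.

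The Nr4a signals were also compared through the log2 difference between 2 members within each array, in which the fixed offset between probes cancels. Because the paralog probe sets are dim and not known to lie above background, this compares probe signals and does not show how the Nr4a2 and Nr4a3 transcripts differed. The Nr4a1 signal differed by 1.28 more than that of Nr4a2 and by 1.24 more than that of Nr4a3 (log2), close to its own difference of 1.23. Nr4a1 minus Nr4a2 lay between 5.40 and 5.75 in the Ly6Clo arrays and between 3.98 and 4.52 in the Ly6Chi arrays. Nr4a1 minus Nr4a3 lay between 4.78 and 4.98 in Ly6Clo and between 3.46 and 3.87 in Ly6Chi. Neither pair overlapped. Each had an exact two-sided permutation p = 0.0286, also after adjustment over the 3 pairs tested, which is the smallest p that the 70 orders allow.

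Klf4, a zinc finger factor that drives monocyte differentiation when expressed in progenitors, had the second largest difference. The brighter of its 2 probe sets (1417394_at) read 4816, 4370, 4430 and 4411 in Ly6Clo, against 2330, 1942, 2231 and 2426 in Ly6Chi. The other (1417395_at) read 1447, 1519, 1252 and 1360 in Ly6Clo, against 806.1, 562.3, 645.2 and 646.9 in Ly6Chi. Neither probe set overlapped between subsets. On the log2 scale the brighter stood at 12.14 ± 0.07 in Ly6Clo and 11.12 ± 0.14 in Ly6Chi (mean ± SD, n = 4 each). The difference was 1.02 (SE 0.08, limma adjusted p = 1.6e-06), or 2.02-fold, and for the other 1.08 (SE 0.10, limma adjusted p = 1.1e-05). Both probe sets have the same source sequence in the annotation, so they are not independent readings. Klf4 ranked 189 among the 11546 genes, and Nr4a1 and Klf4 were the only members both called and at least 2-fold different; 1.68% of all genes met this rule toward Ly6Clo.

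Klf2, which keeps T cells and endothelium quiescent in mice, differed less than Klf4. Its probe set (1448890_at) read 3872, 4373, 4280 and 4664 in Ly6Clo, against 3505, 2799, 3060 and 3238 in Ly6Chi. The subsets did not overlap, although the lowest Ly6Clo array and the highest Ly6Chi array, both numbered 1, lay close together. The log2 means were 12.07 ± 0.11 in Ly6Clo and 11.62 ± 0.14 in Ly6Chi (SD, n = 4 each). The difference of 0.45 (SE 0.08, 95% interval 0.27 to 0.63, limma adjusted p = 0.0015) is 1.37-fold. Klf4 minus Klf2 within arrays lay between -0.08 and 0.31 in Ly6Clo and between -0.59 and -0.42 in Ly6Chi (log2). The Klf4 signal thus differed by 0.57 more than the Klf2 signal (exact two-sided permutation p = 0.0286, the smallest the test allows). This too compares probe signals and does not show how the transcripts differed.

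Lymphocytes are known to express much Klf2, so their markers are set beside it. Summed over the 5 T cell markers tested, intensity was 639 to 818 in Ly6Clo and 625 to 720 in Ly6Chi. No T cell marker was called by limma (1 of 5 at an unadjusted p under 0.05, higher in Ly6Clo). Of 4 NK cell markers tested, Klrd1 and Gzma were called higher in Ly6Clo (50%, beside 32.5% of all genes). The 4 summed to 759 to 990 in Ly6Clo and 384 to 561 in Ly6Chi. The NK cell markers Ncr1, Klre1, Prf1, Eomes and Klra8 did not pass the filter and were not tested. Among these dim markers, Klra8 read 75.2 to 86.05 in Ly6Clo and 51.45 to 65.15 in Ly6Chi, without overlap. Klre1 read 65.2 to 78.1 in Ly6Clo and 54.2 to 66.3 in Ly6Chi, and it, Ncr1, Prf1 and Eomes overlapped between subsets. The 6 B cell markers tested summed to 671 to 977 in Ly6Clo and 895 to 1340 in Ly6Chi. Of these, 3 were called higher in Ly6Chi (50%, beside 32.5% of all genes). The called Cd79a and Ms4a1 were dim and overlapped between subsets. The part of lymphocytes in the Klf2 difference was not tested.

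Klf7, a factor best known from neurons and fat cells, was higher in Ly6Clo in all 4 of its probe sets. The brightest (1449439_at) read 260.5, 325.9, 221.7 and 263.5 in Ly6Clo, against 208.4, 201.6, 146.8 and 131.3 in Ly6Chi. These values are about as dim as those of Nr4a3 (226.5 to 256 over all arrays), and their level above background is likewise not known. The subsets did not overlap, and the Ly6Chi arrays were the more spread of the 2 groups (SD 0.33 on the log2 scale, 0.23 in Ly6Clo). The difference was 0.65 (SE 0.16, 95% interval 0.31 to 1.00, limma adjusted p = 0.0072), or 1.57-fold. Differences of the other probe sets were 0.54 to 0.56 (limma adjusted p = 0.0034 to 0.014). The dimmest of them, 1419356_at, overlapped between subsets, with 79.7 in the lowest Ly6Clo array and 82.01 in the highest Ly6Chi array. The other 3 Ly6Chi arrays lay under the filter's limit, so its difference of 0.56 is given as a bound, at least 1.26-fold. In each of the 4, array 2 was the highest Ly6Clo array and array 3 the lowest. The annotation gives all 4 the same source sequence, so this agreement is within 1 transcript source.

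Klf3, a repressor that recruits CtBP corepressors, had 7 probe sets, and all were tested. Its brightest (1454666_at) read 3076, 3400, 4016 and 3618 in Ly6Clo, against 2681, 2755, 2986 and 3522 in Ly6Chi. The subsets overlapped, since Ly6Chi array 4 lay above 2 of the Ly6Clo arrays. In the fit without a block, the difference of 0.24 (95% interval 0.02 to 0.47, limma adjusted p = 0.099) was not called. With the replicate number as a block it was called (limma adjusted p = 0.041). Without a block, this probe set was called when Ly6Chi array 4 was left out (0.32, limma adjusted p = 0.024). Leaving out any other single array gave no call (limma adjusted p = 0.051 to 0.24).

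Of the other 6 Klf3 probe sets, 5 were called higher in Ly6Clo, with differences of 0.28 to 0.42. For example 1442920_at read 248.9, 265.9, 243.1 and 259.9 in Ly6Clo, against 199.0, 180.6, 199.3 and 184.3 in Ly6Chi (difference 0.42, SE 0.06, limma adjusted p = 3.7e-04). The probe set 1441200_at read 462.8, 510.8, 517.6 and 540.0 in Ly6Clo, against 355.9, 374.4, 387.1 and 407.0 in Ly6Chi. Both are without overlap between the subsets. The dimmest probe set, 1458487_at, read 134.5 to 155.2 in Ly6Clo and 133.0 to 155.4 in Ly6Chi, with a difference of -0.03 (limma adjusted p = 0.81). The gene's call therefore depends on the probe set: averaged over its 7 probe sets, Klf3 differed by 0.28 and was called (limma adjusted p = 0.0021, adjusted over genes).

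**Figure D3:**
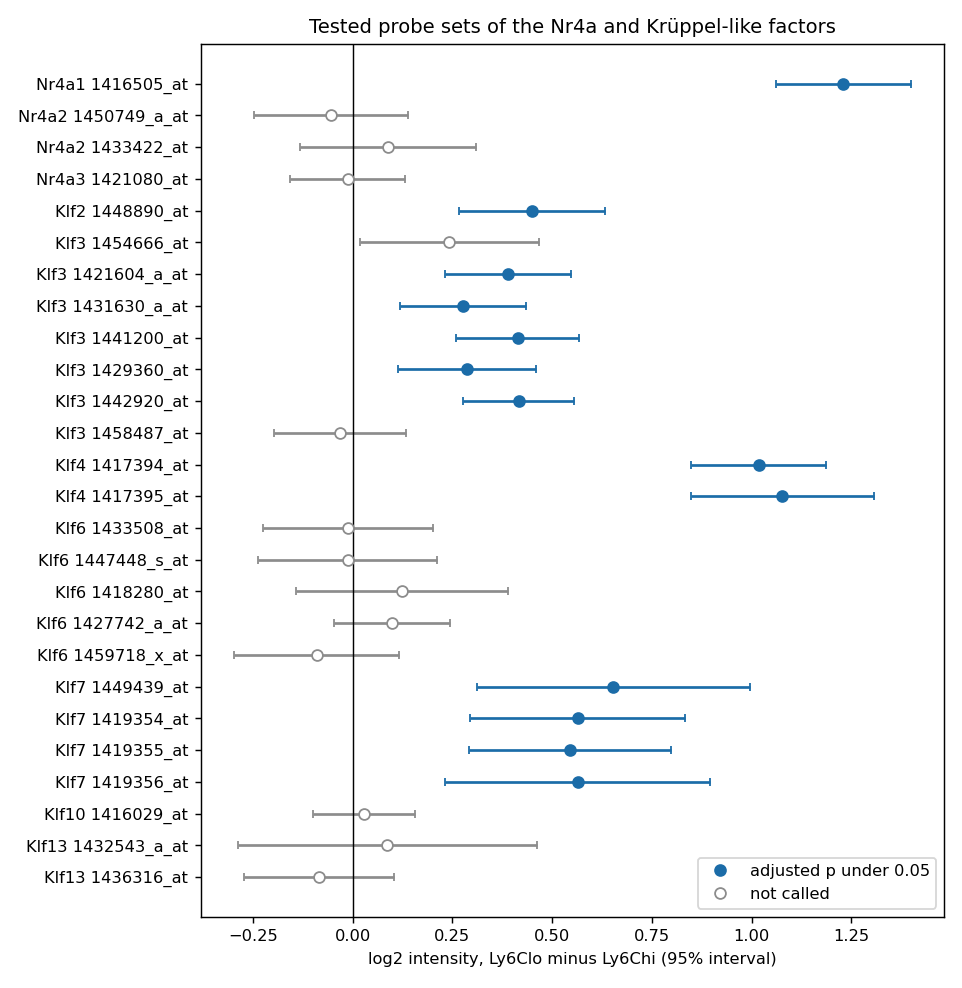
Difference in log2 intensity, Ly6Clo minus Ly6Chi, for the 26 tested probe sets with the 95% interval of the limma fit (unadjusted). Filled points are called at an adjusted p under 0.05; 13 are filled and all lie to the right of 0, while those of Nr4a2, Nr4a3, Klf6, Klf10 and Klf13 are open.

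Klf6, Klf10 and Klf13 did not pass the test. Klf6, a factor induced by injury and inflammatory signals, read 1482, 1886, 1832 and 1704 in Ly6Clo, against 1601, 1696, 1628 and 2036 in Ly6Chi (1433508_at). Its 5 probe sets overlapped between subsets and differed by -0.09 to 0.12, with 95% intervals that together spanned -0.30 to 0.39. The lowest limma adjusted p among them was 0.31. Klf10, induced by TGF-beta, was nearly equal in all Ly6Clo arrays at 1261, 1236, 1255 and 1228, against 1149, 1217, 1243 and 1278 in Ly6Chi. Its difference was 0.03 (95% interval -0.10 to 0.16, limma adjusted p = 0.77), the narrowest interval among the 26 probe sets.

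Klf13, known in human T cells for raising the chemokine Ccl5, had 2 tested probe sets that varied between arrays of 1 subset more than between subsets. The brighter (1432543_a_at) read 1431, 1721, 1018 and 1702 in Ly6Clo, against 1474, 1523, 1459 and 1025 in Ly6Chi. Array 3 of Ly6Clo and array 4 of Ly6Chi were far below the rest. The difference was 0.09 (95% interval -0.29 to 0.46, limma adjusted p = 0.76). The second (1436316_at) read 998.8, 1179, 1003 and 1035 in Ly6Clo, against 1232, 1191, 1063 and 991.7 in Ly6Chi, a difference of -0.08 (limma adjusted p = 0.52). Its remaining probe set lay below the filter in every array.

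The same 2 arrays had the lowest signal of their subset for Alas2, the heme synthesis enzyme of red cell precursors. Alas2 read 3926, 1630, 802.2 and 2164 in Ly6Clo, against 2584, 1306, 1337 and 751.0 in Ly6Chi. The 3 red cell markers tested summed to 1023 to 4534 in Ly6Clo and 952 to 3061 in Ly6Chi. The 7 platelet markers summed to 2470 to 6207 in Ly6Clo and 2092 to 4877 in Ly6Chi. Neither list had a marker called by limma, and 1 platelet marker and 0 red cell markers had an unadjusted p under 0.05. Those 2 arrays were also the lowest of their subset for the brightest Klf7 probe set. Without Ly6Clo array 3 the Klf7 difference was 0.74 (limma adjusted p = 0.0051), and without Ly6Chi array 4 it was 0.53 (limma adjusted p = 0.018). The part of red cell or platelet RNA in the Klf13 and Klf7 values was not tested.

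**Figure D4:**
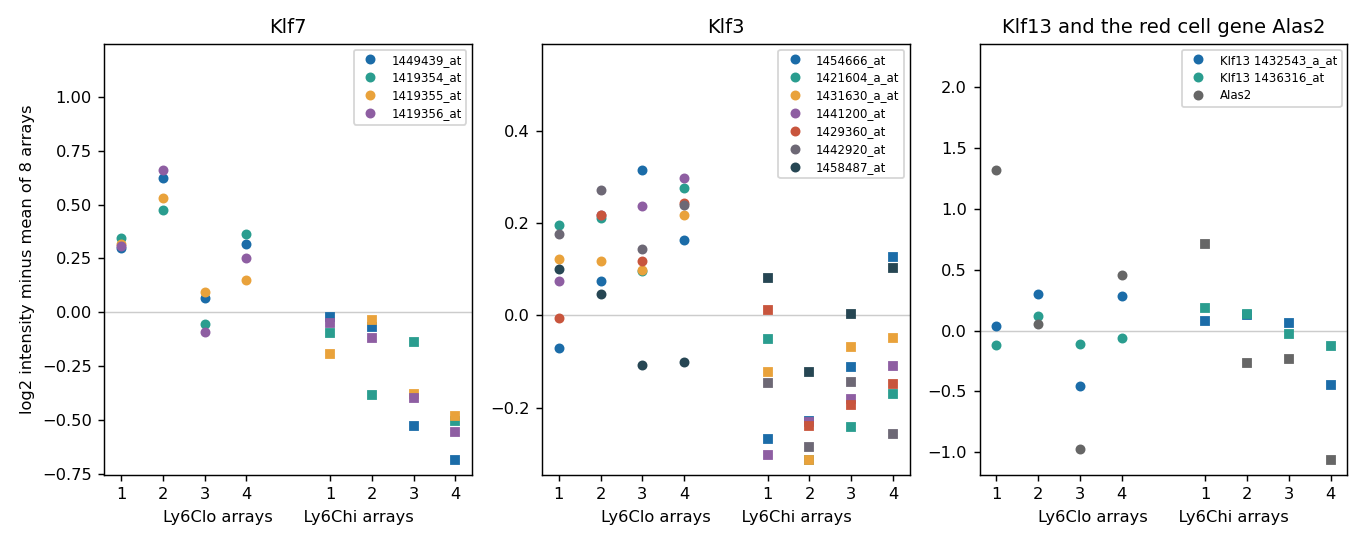
log2 intensity minus the mean of all 8 arrays for the probe sets of Klf7, Klf3, and Klf13 with Alas2, by array number in Ly6Clo (circles, left) and Ly6Chi (squares, right); panels have different scales. Klf13 1432543_a_at and Alas2 are both lowest in Ly6Clo array 3 and Ly6Chi array 4. Klf3 1458487_at, 1454666_at and 1429360_at overlap between subsets, and the other Klf3 probe sets do not.

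The other Krüppel-like and Sp factors showed small differences. Of 19 such genes, 16 were annotated to a probe set of their own and 11 were tested. Klf9, Sp1 and Klf16 were called higher in Ly6Clo and Klf11 higher in Ly6Chi, 36.4% of those tested, beside 32.5% of all genes. Klf9, a glucocorticoid-induced factor, differed by 0.39 (limma adjusted p = 0.042) with overlapping subsets. The ubiquitous activator Sp1 differed by 0.25 (limma adjusted p = 0.023), at 1446 to 1763 in Ly6Clo and 1254 to 1379 in Ly6Chi. Klf16 differed by 0.23 (limma adjusted p = 0.047), at 105.7 to 127.9 in Ly6Clo and 92.8 to 108.3 in Ly6Chi, dim and also overlapping. Klf11, the close relative of Klf10, differed by -0.23 (limma adjusted p = 0.026), at 316.0 to 361.2 in Ly6Clo and 362.9 to 417.8 in Ly6Chi. The count of 4 calls became 0 without Ly6Clo array 3, 1 without Ly6Clo array 2 or 4 or Ly6Chi array 2 or 4, and 2 without Ly6Chi array 1 or 3. Klf5, Klf15, Klf17, Sp5 and Sp8 did not pass the filter.

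Partners and upstream factors of the members were called in both directions. Of 28 tested, 8 rose toward Ly6Clo and 3 toward Ly6Chi (39.3%, beside 32.5% of all genes), with a median difference of 0.00. The MEF2 factors bind the promoters of Nr4a1 and Klf2 in other cells. Mef2d read 1026, 1074, 1133 and 1056 in Ly6Clo, against 648.6, 561.3, 531.1 and 684.1 in Ly6Chi (difference 0.83, SE 0.09, limma adjusted p = 1.7e-05). Mef2c read 1161, 1158, 1277 and 1061 in Ly6Clo, against 806.4, 576.8, 575.9 and 694.7 in Ly6Chi (difference 0.82, SE 0.11, limma adjusted p = 1.2e-04). Nfatc3, a calcium-responsive factor, was 2.14-fold higher in Ly6Clo (difference 1.10, SE 0.08, limma adjusted p = 7.6e-07). None of these 3 overlapped between subsets.

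Cebpb, which mouse Ly6Clo monocytes need to survive and which binds at Nr4a1, is named with Mef2a, Ctbp1, Ctbp2 and Creb1 after their values were seen. Cebpb read 9938, 10620, 10010 and 9814 in Ly6Clo, against 6200, 5910, 5545 and 5829 in Ly6Chi (difference 0.78, limma adjusted p = 2.0e-06). Mef2a differed by 0.50 (limma adjusted p = 1.1e-04). Toward Ly6Chi, the retinoid X receptor Rxra, with which Nr4a1 and Nr4a2 form dimers, read 312.0, 293.6, 247.2 and 304.6 in Ly6Clo, against 571.4, 442.0, 475.5 and 443.1 in Ly6Chi (difference -0.74, SE 0.10, limma adjusted p = 1.5e-04). The deacetylase Hdac2 differed by -0.30 (limma adjusted p = 0.0087) and Rxrb by -0.22 (limma adjusted p = 0.019). The Klf3 corepressors Ctbp1 and Ctbp2 differed by -0.02 and -0.12 and were not called, and Creb1 differed by 0.01.

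**Figure D5:**
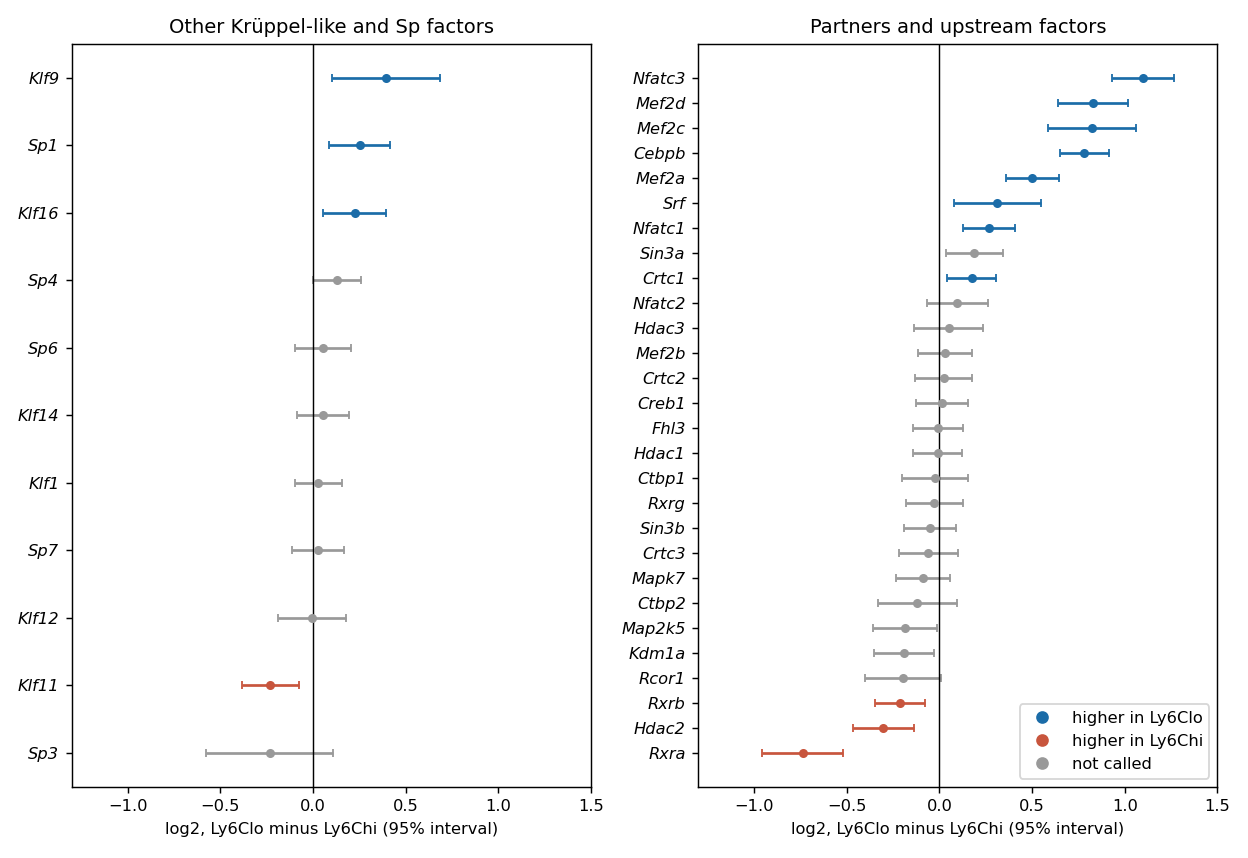
Difference in log2 intensity, Ly6Clo minus Ly6Chi, with unadjusted 95% intervals for the tested genes of 2 lists: other Krüppel-like and Sp factors (left) and partners and upstream factors (right). Blue points are called higher in Ly6Clo, red higher in Ly6Chi and grey not called; Nfatc3, Mef2d, Mef2c and Cebpb lie furthest right and Rxra furthest left.

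Genes known as targets of the members in other cells moved in both directions. Of 12 tested, 2 had more signal in Ly6Clo and 3 in Ly6Chi (41.7%, beside 32.5% of all genes), with a median of -0.02. The other 7 tested (S1pr1, Cdkn1a, Ccl5, Smad7, Bpgm, Pomc and Th) were not called. Nos3, Pgam2, Pygm and Mertk did not pass the filter. Eno3, the muscle enolase that Nr4a1 raises in mouse skeletal muscle, read 5237, 4241, 5501 and 4505 in Ly6Clo, against 478.3, 312.9, 456.0 and 535.2 in Ly6Chi. Its difference was 3.47 (SE 0.15, limma adjusted p = 2.0e-08), or 11.1-fold. Thbd, the anticoagulant receptor thrombomodulin that Klf2 and Klf4 raise in endothelium, read 1179, 1289, 1403 and 1444 in Ly6Clo, against 643.2, 525.9, 648.8 and 732.9 in Ly6Chi (difference 1.06, limma adjusted p = 9.9e-06).

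Cd14, which KLF4 activates in human cells, was lower in Ly6Clo, at 216.2, 333.8, 206.8 and 269.7, against 509.3, 722.3, 574.6 and 424.8 in Ly6Chi (difference -1.12, limma adjusted p = 4.1e-04). The integrin chain Itgb7, a Klf2 target in mouse lymphocytes, differed by -0.79 (limma adjusted p = 1.1e-04). Galectin-3 (Lgals3), which Klf3 represses in mice, differed by -0.58 (limma adjusted p = 3.3e-05). S1pr1, the lipid receptor through which Klf2 directs T cell exit from lymphoid organs, read 85.8 to 108.0 in Ly6Clo and 92.3 to 112.7 in Ly6Chi and was not called (difference -0.08, limma adjusted p = 0.53).

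Nr4a1, Nr4a2, Nr4a3, Klf2, Klf4, Klf6 and Klf10 are themselves known as immediate early genes, which cell handling can induce. For this reason 20 other such genes were set beside them. Of the 16 tested, 6 were called toward Ly6Clo and 3 toward Ly6Chi (56.2%, beside 32.5% of all genes), with a median of 0.14. Fos, the AP-1 subunit, went against Nr4a1: it read 726.9, 1248, 479.9 and 422.6 in Ly6Clo, against 3293, 4116, 2435 and 2838 in Ly6Chi (difference -2.25, SE 0.29, limma adjusted p = 9.8e-05). Atf3 differed by -0.82 and Fosl2 by -0.56. Jun, which pairs with Fos, was higher in Ly6Clo, at 358.2, 500.3, 318.4 and 419.8, against 182.9, 156.7, 99.7 and 99.1 in Ly6Chi (difference 1.60, SE 0.20, limma adjusted p = 8.8e-05). Dusp2, a MAP kinase phosphatase, differed by 1.12 and Ier5 by 0.65. Egr1, induced by many of the same signals as Nr4a1, read 218.9 to 360.3 in Ly6Clo and 184.2 to 304.6 in Ly6Chi and was not called (difference 0.20, limma adjusted p = 0.46). It and S1pr1 were picked with their values known. Fosb, Fosl1, Egr2 and Myc did not pass the filter. The part of handling in the member differences was not tested.

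Of 10 monocyte markers tested, limma called 5 toward Ly6Clo and 3 toward Ly6Chi (80%, beside 32.5% of all genes). Csf1r, the receptor that defines monocytes, read 16640 to 17410 in Ly6Clo and 14650 to 15230 in Ly6Chi. Ccr2 read 1455 to 2005 in Ly6Clo and 5922 to 6672 in Ly6Chi, and Treml4 6931 to 7716 in Ly6Clo and 1163 to 1461 in Ly6Chi. Cx3cr1, a known marker of Ly6Clo monocytes, read 1217 to 1852 in Ly6Clo and 1036 to 1528 in Ly6Chi and was not called (difference 0.32, limma adjusted p = 0.11). Ly6c1 and Ly6c2, of the sorted epitope, had no probe set of their own. The 8 neutrophil markers tested summed to 1356 to 1702 in Ly6Clo and 1966 to 2605 in Ly6Chi. The brightest was Csf3r, at 795.7 to 962.5 in Ly6Clo and 1190 to 1363 in Ly6Chi. The 3 called higher in Ly6Chi were Csf3r, Mpo and S100a8 (37.5%, beside 32.5% of all genes). Elane, Ltf, Camp, Ngp and S100a9 were not called. S100a8 was dim and overlapped between subsets. The 6 dendritic cell markers tested summed to 2271 to 2658 in Ly6Clo and 2524 to 3004 in Ly6Chi. Of these 6, limma called Cd209a higher in Ly6Clo (0.90) and Bst2 (-0.94), Tcf4 (-0.67) and Flt3 (-0.55) higher in Ly6Chi. The share called was 66.7%, beside 32.5% of all genes.

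Likeness to a member was measured as the root mean square difference between log2 values centred on each gene's mean over the 8 arrays, for the 2 members that were called and at least 2-fold different, against 11536 other genes. For Nr4a1 the closest were Grk3, a kinase that desensitises G protein-coupled receptors (0.046), the integrin chain Itgal (0.076) and the palmitoyltransferase Zdhhc6 (0.080). The names of the Grk3 and Zdhhc6 probe sets (_s_at, _x_at) mark probes that can also match other transcripts. Grk3 read 4161, 3959, 4062 and 3917 in Ly6Clo, against 1822, 1513, 1554 and 1956 in Ly6Chi, and followed Nr4a1 in having arrays 2 and 3 as its lowest Ly6Chi values. For Klf4 the closest were the integrin chain Itgb1 (0.066), the myosin Myo1g (0.067) and the aquaglyceroporin Aqp9 (0.073). Aqp9 passed the filter through its Ly6Clo arrays alone and read 76.8 to 81.2 in Ly6Chi, so its difference is a bound (at least 1.92-fold) and its likeness to Klf4 is uncertain. Itgb1 read 2424, 2441, 2554 and 2501 in Ly6Clo, against 1209, 1070, 1226 and 1257 in Ly6Chi. With 8 arrays in 2 groups, likeness mostly reflects a similar difference between subsets.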

How the data were processed

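RNA from sorted monocytes was amplified with a lengthened in vitro transcription, labelled with biotin and hybridised to Affymetrix arrays, 1 per sample, per the labels' protocols. The deposited values are probe set intensity values on a linear scale, as the authors processed them. The submitters' processing notes list GCRMA and MAS5 and give neither a version nor which made these values, so the normalization behind the intensity values is unknown; long amplification and the choice of summary can change the size of ratios. A genome build is not given in the sources used here.

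From these files, 64 control probe sets were left out, the rest were log2-transformed without a pseudocount, and probe sets over the median of all values (81.9) in at least 4 of 8 arrays were tested. The annotation gives 1 gene symbol to 34945 of 45037 probe sets, several to 932, and 9160 stay unnamed here. limma 3.58.1 in R 4.3.3 was fitted over 22831 probe sets (lmFit and eBayes, two-sided, no block) with Benjamini-Hochberg adjustment and a threshold of 0.05. A gene was read from its tested probe set with the highest mean. Intervals are at 95% and unadjusted. Differences between members used an exact permutation test over 70 orders.

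The members and gene lists were chosen with earlier results of these data known. Genes named were all members, up to 3 called genes in each direction of each list with the largest difference, markers given as checks, and the 3 genes most like each called 2-fold member. The motifs were chosen after the data were seen. Promoter windows came from RefSeq (GRCm38.p6) and matched 9 of 10 members by symbol. Alternatives were a replicate block, leaving out arrays, other filters, normalizations, scales, variance models, thresholds and probe set rules. The fit was tested on simulated data. Whether arrays of equal number share a sort is not stated. The 4 samples of a subset are separate sorts of pooled mice, so p-values measure the spread between sorts. With 4 sorts recorded for 8 samples, each sort may have given a sample of both subsets. The fit without a block and the permutation over 70 orders treat the 8 arrays as unpaired.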

Additional observations from a re-analysis of the deposited data

Results flagged for a closer look

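In 6 of 120 groups of 4 arrays examined, 1 array lay far from the other 3, by a ratio of its gap to the whole range above Dixon's 95% critical value; chance flags about 1 in 20 such groups. For Klf13 (1432543_a_at) in Ly6Chi the ratio was 0.892, with array 4 at 1025 and the others at 1459 to 1523. For Klf4 (1417394_at) in Ly6Clo it was 0.859, with array 1 at 4816 and the others at 4370 to 4430, a gap that is small beside the difference between subsets. The dim Klf13 probe set 1456030_at had ratios of 0.922 in Ly6Clo (array 3, low) and 0.852 in Ly6Chi (array 3, low). For the dim Nr4a2 probe set 1450750_a_at in Ly6Clo the ratio was 0.946, with array 1 at 39.48 and the others at 43.49 to 43.73. Klf11 in Ly6Clo had a ratio of 0.834, with array 2 at 361.2 and the others at 316.0 to 323.1.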

How the results depend on the processing

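Nr4a1, Klf2, Klf4 and Klf7 kept their direction and their call under all 22 alternatives run for each. Their differences ranged over 1.19 to 1.28 for Nr4a1, 0.39 to 0.55 for Klf2, 0.95 to 1.08 for Klf4 and 0.53 to 0.76 for Klf7, with limma adjusted p of at most 0.025. The count of called members was 4 to 5 under all alternatives other than the 2-fold rule, and 0 were called higher in Ly6Chi. Asking for at least 2-fold gave 801 probe sets in all, 3 of the members' probe sets, 2 member genes, 0 other Krüppel-like and Sp factors, 1 partner or upstream factor, 3 targets and 3 immediate early genes. The other Krüppel-like and Sp factors gave 0 to 3 calls when 1 array was left out and 4 without both samples numbered 1: 0 without Ly6Clo array 3, 1 each without Ly6Clo arrays 2 or 4 or Ly6Chi arrays 2 or 4, and 2 each without Ly6Chi arrays 1 or 3. They gave 2 with no filter, 2 with a filter at the 25th percentile, 2 with array weights and 0 at a threshold of 0.01. Members near 0 changed sign. Leaving out 1 array gave -0.10 to 0.016 for Nr4a2, -0.050 to 0.012 for Nr4a3, -0.056 to 0.067 for Klf6, -0.00052 to 0.051 for Klf10 and -0.047 to 0.25 for Klf13. Without both samples numbered 1, Klf6 stood at 0.022 and Klf10 at -0.0066. With averaged probe sets Nr4a2 stood at 0.017 and Klf6 at 0.022, with the most variable probe set at 0.089 and 0.12, and without probe sets ending in _x_at, _s_at or _a_at Nr4a2 at 0.089 and Klf13 at -0.085. The cause was not tested.

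With the replicate number as a block, 5 members were called, Klf3 being added (limma adjusted p = 0.041), and no other member call changed. The limma adjusted p of Klf3 ranged over 7.7e-04 to 0.24 in its alternatives. Deviations of same-numbered arrays correlated at 0.27, 0.34, -0.03 and -0.10. Of the 8 arrays, 3 (both numbered 2 and Ly6Clo array 1) correlated best with their own number. These values cannot settle whether equal numbers, or other pairs of arrays, share a sort. Over the 12 alternatives run, the within-array differences ranged over 1.196 to 1.377 for Nr4a1 minus Nr4a2, 1.18 to 1.32 for Nr4a1 minus Nr4a3 and 0.49 to 0.62 for Klf4 minus Klf2; their p stood at its smallest possible value throughout, which says nothing about stability. Dim signal limits what can be said of Nr4a2, Nr4a3 and Klf7.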

Other observations

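Over all tested probe sets, the deviations of Ly6Clo array 3 and Ly6Chi array 4 from their subset means correlated at 0.55, the highest of the 16 pairs across subsets; the other pairs lay between -0.41 and 0.34. These are the arrays in which Klf13 1432543_a_at, the brightest Klf7 probe set and Alas2 were lowest in their subset. This is a description across probe sets, which are not independent replicates.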
